A study of Mus musculus with 6 samples.

Results

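The genes described here are 8 genes of arachidonic acid metabolism, Alox12, Alox5, Alox5ap, Ptgs1, Ptgs2, Ptgis, Ptges and Hpgd, chosen by name from the 31053 genes of the count matrices. They were measured by droplet single-cell RNA sequencing of the 3' end of transcripts in 6 mouse lung libraries. Of these, 4 were sorted from Cxcl12DsRed/+ lungs, which carry a DsRed reporter in the first exon of Cxcl12, an arterial chemokine gene, on embryonic days (E) 13.5, 15.5 and 18.5, and on postnatal day (P) 8; the last 3 are called the 3 later times. The sort kept reporter-positive, CD31-positive cells without EpCAM or CD45, and the protocol also names CD31-negative, reporter-positive mesenchymal cells; lungs were pooled within a library. The other 2 were whole E18.5 lungs labelled Cxcl12DsRed/+ (control) and Cxcl12DsRed/DsRed (null), so the reporter allele was present in every library and no wild-type lung was measured. Each condition was 1 library, so no test between conditions was possible. Every interval below is an exact 95% interval that covers counting error only.

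Arachidonic acid is released from membrane lipids and then taken along separate enzymatic routes. Lipoxygenases add oxygen to it: Alox12 makes 12-hydroperoxy acids, and Alox5, which is presented with its substrate by the membrane protein Alox5ap, starts leukotriene synthesis and is known from myeloid cells. Cyclooxygenases make prostaglandin H2, through the mostly constitutive Ptgs1 and the inducible, immediate-early Ptgs2. Terminal synthases then shape it, Ptgis into prostacyclin, a vasodilator made by vessel walls, and Ptges into prostaglandin E2. Hpgd, the 15-hydroxyprostaglandin dehydrogenase, starts the breakdown of prostaglandins, a task for which the lung is known.

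In the GENCODE M21 annotation of GRCm38, the genome that the libraries were aligned to as mm10, all 8 are protein-coding. Alox12 (ENSMUSG00000000320) lies at chr11:70241457-70255353 on the minus strand, Hpgd (ENSMUSG00000031613) at chr8:56294585-56321043 on the plus strand, and Ptgs1 (ENSMUSG00000047250) at chr2:36230426-36252272 on the plus strand. Ptgis (ENSMUSG00000017969) lies at chr2:167191805-167240604 on the minus strand and Alox5ap (ENSMUSG00000060063) at chr5:149264767-149288153 on the plus strand. Alox5 (ENSMUSG00000025701), Ptgs2 (ENSMUSG00000032487) and Ptges (ENSMUSG00000050737) lie at chr6:116410077-116461178, chr1:150100031-150108227 and chr2:30889471-30929863. No 60-base word from the last 300 bases of a transcript of these 8 genes was found in a transcript of any other gene. The span of Hpgd overlaps Gm45540 and that of Ptges overlaps Gm13400 on the same strand, and these values are less certain for that reason.

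The promoters of Alox12, Hpgd and Ptgs1 are shown because these genes had the contrasting patterns among endothelial groups and over time that are given below. RefSeq sequences on GRCm38.p6, from 250 bases before to 50 bases after the transcript start, were at hand for 6 of the 8 genes. Each is written 5' to 3' on the strand of the gene, and capitals mark GGAA or its complement TTCC, the core of ETS factor motifs.
Alox12, chr11:70255321-70255620, minus strand: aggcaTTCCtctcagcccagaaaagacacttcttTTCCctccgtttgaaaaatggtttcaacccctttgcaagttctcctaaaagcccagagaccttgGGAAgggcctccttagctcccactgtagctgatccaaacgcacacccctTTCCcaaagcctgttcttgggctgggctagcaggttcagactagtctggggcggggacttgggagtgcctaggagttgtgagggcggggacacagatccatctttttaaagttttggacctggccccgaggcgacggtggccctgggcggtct
Hpgd, chr8:56294302-56294601, plus strand: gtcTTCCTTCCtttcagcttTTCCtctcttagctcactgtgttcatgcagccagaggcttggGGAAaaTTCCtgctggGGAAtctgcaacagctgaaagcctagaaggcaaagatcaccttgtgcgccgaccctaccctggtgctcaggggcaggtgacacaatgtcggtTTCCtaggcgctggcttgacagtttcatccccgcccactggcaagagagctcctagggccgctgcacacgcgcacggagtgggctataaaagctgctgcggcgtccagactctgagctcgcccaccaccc
Ptgs1, chr2:36230176-36230475, plus strand: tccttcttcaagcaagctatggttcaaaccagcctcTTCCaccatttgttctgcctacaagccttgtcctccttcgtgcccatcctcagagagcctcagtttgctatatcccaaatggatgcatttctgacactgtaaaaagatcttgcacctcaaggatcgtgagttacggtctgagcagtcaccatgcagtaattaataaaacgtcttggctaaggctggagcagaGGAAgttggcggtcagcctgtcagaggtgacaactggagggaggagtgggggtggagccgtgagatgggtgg
GGAA was found at 4 places for Alox12, 7 for Hpgd and 2 for Ptgs1 on both strands together, and 96.0% of the 32851 promoters of this length held at least 1. Both strands were also searched for 5 other motifs. Hpgd held 1 ACAAT, a SOX factor core found in 31.0% of all promoters of this length. Hpgd also held 1 TATAAA, the TATA box, which 13.6% of them held. None of the 3 promoters held the AP-1 motif TGANTCA, which 7.81% of all promoters held. The cAMP response half-site TGACG, in 20.8% of all promoters, was absent from these windows too. So was the RBPJ motif GTGGGAA, which contains GGAA and was in 6.38% of all promoters. Alox12 and Ptgs1 held none of the 5. A match is a description of letters in this window and not a site of binding.

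The libraries held 63746333 to 117522172 transcript counts (unique molecular identifiers, UMIs), and 7448 to 12726 cells per library passed the limits on genes and mitochondrial share. Cells with at least 2 UMIs of Pecam1 and Cdh5 together, genes of endothelial junctions, were taken as endothelial cells (ECs): 210 in the E13.5 library and 9453, 9119 and 8259 in the 3 later ones. At E13.5 the library was mostly cells without a UMI of either gene, 12361 in number, with a summed level of 5067 counts per 1000000 UMIs (CPM) over 7 mesenchymal markers, so it bears little on endothelium. ECs were split in order by at least 10 UMIs of Eln (elastin), then at least 2 UMIs of Gja4 (an arterial connexin), Car4 (an alveolar capillary marker) and Gpihbp1 (a general capillary marker). The Eln group held 1513, 803 and 398 ECs at the 3 later times, the Gja4 group 5864, 5213 and 6009, and the Gpihbp1 group 1103, 1743 and 929. The Car4 group held 8 ECs at E15.5, too few to use, and then 569 and 590. Gkn3, a marker of larger arteries, was at 184 CPM in the Eln group and 0.440 CPM in the Gja4 group at E18.5. Many ECs stood at the edges of the Gpihbp1 and Gja4 cuts. At E18.5, over all ECs, 1261 had 1 UMI of Gpihbp1, just outside its cut, and 852 had 2, just inside it, and for Gja4 these were 1013 and 717. The Gja4 group also held capillary markers, more of them in each later library: Gpihbp1 was at 120, 380 and 1011 CPM in it at the 3 later times, against 422, 994 and 1500 CPM in the Gpihbp1 group, and Car4 was at 0.256, 48.9 and 239 CPM. Its 6 arterial markers summed to 2199, 3107 and 1985 CPM. Changes over time within the Gja4 group cannot be told apart from a change in which cells it held.

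Markers of other cells moved with the Eln group. The 7 mesenchymal markers summed to 2082, 954 and 355 CPM in the Eln group at the 3 later times, against 125, 64.7 and 18.2 CPM in the Gja4 group, and all 7 were detected in both. Epithelial markers summed to 225, 240 and 186 CPM in the Eln group and 8.80, 31.4 and 5.99 CPM in the Gja4 group. Of these 6 markers the Eln group held all at E15.5, 5 at E18.5 (not Cdh1), then 4 at P8 (not Cdh1 or Nkx2-1). Smooth muscle markers, which include Acta2 of that list, summed to 1237, 646 and 315 CPM in the Eln group and 29.6, 13.5 and 20.4 CPM in the Gja4 group. Their part in the results below was not tested as a cause, but each Eln group value of the 8 genes is given with and without the ECs in which Col1a1, Col1a2 and Col3a1 exceeded Pecam1 and Cdh5 where this moved it out of its interval and it rested on more than 3 counts. The platelet and megakaryocyte markers, which matter because platelets are rich in Alox12, summed to 3.40 to 14.5 CPM over the Eln, Gja4, Car4 and Gpihbp1 groups of the 3 later libraries, with 3.40 to 5.61 CPM in the Eln group and 4.17 to 5.45 CPM in the Gja4 group, and Gp6 or Gp1bb was at 0 in most of them. Their part in the Alox12 levels was not tested.

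Among the lipoxygenase genes, Alox12 was highest in the Gja4 group. Its level there was 25.3 CPM at E13.5 (17.1 to 36.1, in 149 ECs), 40.1 CPM at E15.5 (38.5 to 41.8), 77.3 CPM at E18.5 (74.4 to 80.4), then 11.7 CPM at P8 (10.8 to 12.7). In the Eln group it was 11.6 CPM (9.87 to 13.5), 13.8 CPM (11.2 to 16.7) and 3.92 CPM (2.19 to 6.46) at the 3 later times. The intervals of these groups did not overlap at any of the 3 times. The Gja4 level was 3.47-fold the Eln level at E15.5 (2.97 to 4.09), 5.62-fold at E18.5 (4.61 to 6.91), then 2.99-fold at P8 (1.80 to 5.38). Since this gene had been picked as a marker of these cells in the same libraries, these values are a description. At E15.5, leaving out the collagen-rich ECs lowered the Eln group to 8.30 CPM, and leaving out cells called as doublets lowered it to 7.59 CPM, both below its interval. The log2 ratio of Gja4 over Eln was then 2.22 and 2.36, against 1.75 with all cells.

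The capillary groups also had less Alox12 than the Gja4 group. The Gpihbp1 group was at 4.81 CPM (3.70 to 6.15), 16.1 CPM (13.8 to 18.6) and 5.95 CPM (3.99 to 8.55) at the 3 later times. The Car4 group was lower still, at 6.44 CPM (4.17 to 9.51) at E18.5, then 1.41 CPM (0.517 to 3.06) at P8. The Gja4 over Gpihbp1 ratio was 8.35-fold at E15.5 (6.50 to 10.9), 4.81-fold at E18.5 (4.13 to 5.64), then 1.97-fold at P8 (1.36 to 2.97). The split kept Gja4-positive ECs out of the Gpihbp1 group, and with each cut used alone, where a cell can stand in both groups, the log2 ratios were 1.25, 0.89 and 0.18. The capillary markers of the Gja4 group moved with this ratio, and their part in it was not tested. The order at E18.5 was Gja4, then Gpihbp1, the remaining ECs (15.5 CPM) and Eln, whose intervals overlapped, and last Car4. The Gja4 group held 89.0%, 88.0% and 90.5% of the Alox12 UMIs of all ECs, with 62.0%, 57.2% and 72.8% of the ECs, at the 3 later times.

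Over all ECs, Alox12 was also graded with the Gja4 count. At E18.5 it was 10.2 CPM in ECs without Gja4 UMIs, 20.8 CPM at 1 UMI, 39.8 CPM at 2 or 3, 60.7 CPM at 4 to 7 and 78.5 CPM at 8 or more, and no 2 neighbouring intervals overlapped. E15.5 ran from 4.49 to 45.7 CPM and P8 from 2.71 to 13.9 CPM over the same bins. Along Eln it went the other way only beyond 9 UMIs. At E18.5 it was 55.1 CPM at 0 or 1 Eln UMI and 55.0 CPM at 2 to 9, then 19.4 CPM at 10 to 49 and 6.65 CPM at 50 or more. Gja4 counts per cell also grow with depth, and within a cell all these genes share 1 total.

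**Figure D1:**
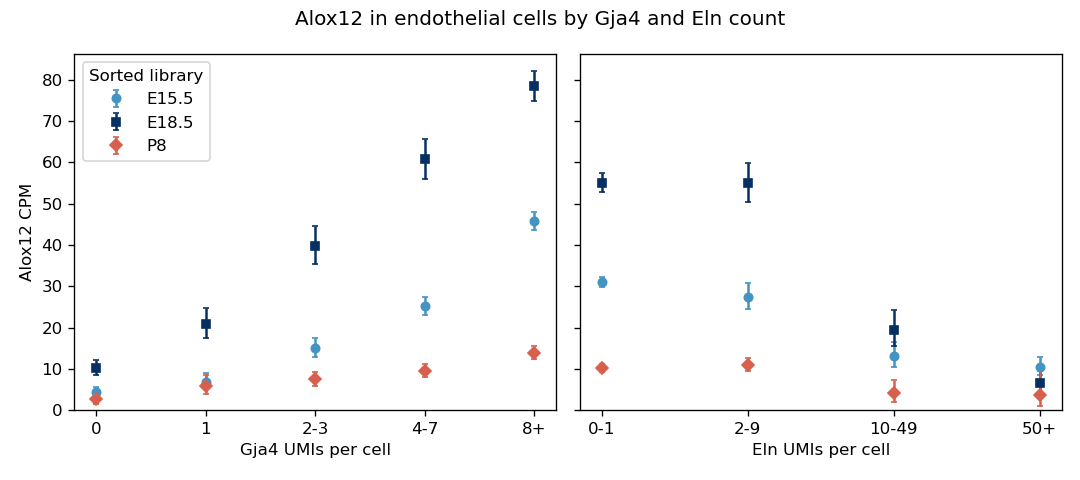
Alox12 in CPM (y axis, from 0) in endothelial cells of the 3 later sorted libraries (E15.5, E18.5, P8), binned by the UMIs of Gja4 (left) and of Eln (right) per cell. Points are summed levels of a bin and bars are exact 95% counting intervals; at E18.5 the level ran from 10.2 to 78.5 CPM over the Gja4 bins and from 55.1 to 6.65 CPM over the Eln bins.

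With every cell thinned to 2000 UMIs, Alox12 was seen in 8.14% of ECs of the Gja4 group at E15.5 (7.46% to 8.87%), in 15.1% at E18.5 (14.1% to 16.1%), then 2.53% at P8 (2.15% to 2.96%). Without thinning these shares were 26.2%, 31.4% and 7.99%, at median depths of 8516, 5639 and 5854 UMIs. Cells without a Pecam1 or Cdh5 UMI, which should lack Alox12, held it in 1 of 1861 thinned cells at E15.5 (0.0537%), with 3 of 286 at E18.5 (1.05%), at median depths of 7608 and 8412 UMIs. In those cells at P8 it was in 0 of 80, which allows a share of up to 3.75% by the floor of 3 cells and 4.51% by the exact interval, so the P8 share in ECs was not above what that count can exclude. Over the 14 endothelial groups of at least 50 cells at the 3 later times, the genes whose log2 levels were most like Alox12 were Shkbp1 (Pearson's r = 0.88), Amd2 (r = 0.87) and Cables2 (r = 0.85), out of 7931 genes that reached 20 CPM. Over these groups Alox12 spanned 1.41 to 77.3 CPM and Amd2 12.2 to 235 CPM, but Shkbp1 only 16.5 to 31.5 CPM and Cables2 14.7 to 41.3 CPM. An r does not compare the size of these ranges. Groups from 1 library share its depth, so these r values only describe the 14 points.

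Alox5 was not detectable in ECs at this depth. It had 0 UMIs in ECs at E13.5 and E15.5, 1 at E18.5, then 2 at P8, and 3 counts would be 0.0314 to 1.66 CPM in these EC totals. Its helper Alox5ap was present in ECs throughout, in a pattern that changed with time. At E15.5 it was 29.6 CPM in the Gja4 group (28.3 to 31.1), 21.5 CPM in the Eln group (19.1 to 24.0) and 13.1 CPM in the Gpihbp1 group (11.2 to 15.2). At E18.5 the Eln group was highest at 55.3 CPM (50.1 to 60.9), with 43.1 CPM in the Gja4 group (40.9 to 45.4), 11.4 CPM in the Gpihbp1 group and 10.3 CPM in the Car4 group. At P8 the Eln group still held 43.1 CPM (36.8 to 50.2), while the Gja4 group was at 11.4 CPM (10.5 to 12.4), close to the Gpihbp1 group at 8.21 CPM (5.87 to 11.2). The summed levels of the Gja4 and Eln groups thus changed places between E15.5 and E18.5. They went from 1.38-fold higher in the Gja4 group (1.22 to 1.56) to 1.28-fold higher in the Eln group (1.15 to 1.43). At P8 they stood 3.77-fold apart (3.15 to 4.50). The Eln group was not uniform at E18.5. Its ECs with 10 to 49 Eln UMIs were at 67.3 CPM (59.7 to 75.7). Those with 50 or more were at 40.2 CPM (33.65 to 47.6), which overlapped the Gja4 group. Over all ECs of E18.5, Eln group included, those with 8 or more Gja4 UMIs were at 59.2 CPM (56.1 to 62.4). Leaving out collagen-rich ECs raised the Eln level to 24.4 CPM at E15.5 and 61.2 CPM at E18.5. Immune markers, whose cells are rich in Alox5ap, summed to 34.7, 8.55 and 2.35 CPM in the Eln group at the 3 later times and 21.9, 6.07 and 1.26 CPM in the Gja4 group. Cells without a Pecam1 or Cdh5 UMI held Alox5ap at 3.58, 28.4 and 64.65 CPM (46.2 to 88.0 at P8). At P8 this was above the Eln group, with overlapping intervals. Immune markers summed to 15.3, 201 and 934 CPM in those cells, and their part in these levels was not tested. The genes most like Alox5ap over the 14 groups were Mllt3 (r = 0.94), Cd59a (r = 0.93) and Mgst1 (r = 0.93).

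Of the cyclooxygenases, Ptgs1 had a higher level than Ptgs2 in the Eln group at the 3 later times. It was 4.36 CPM there at E15.5 (3.35 to 5.58), 21.7 CPM at E18.5 (18.4 to 25.3), then 37.1 CPM at P8 (31.2 to 43.7), with no overlap between times. The Gja4 group was at 1.64, 5.86 and 1.43 CPM and the Gpihbp1 group at 9.39, 7.99 and 5.75 CPM. At E15.5 the Gpihbp1 group and the remaining ECs (8.77 CPM) were thus above the Eln group. The Eln level was thus 3.70-fold the Gja4 level at E18.5 (2.99 to 4.57), then 26.0-fold at P8 (19.4 to 35.3). At P8 the 4.82% of ECs in the Eln group held 54.6% of the Ptgs1 UMIs of all ECs. Within that group the ECs with 50 or more Eln UMIs, 114 in number, were at 84.0 CPM (67.7 to 103) and those with 10 to 49 at 18.3 CPM (13.6 to 24.1). Cells without a Pecam1 or Cdh5 UMI were at 8.20 CPM at E15.5 (6.83 to 9.76), 46.7 CPM at E18.5 (39.2 to 55.3) and 43.6 CPM at P8 (28.8 to 63.5). The Eln group was below them at each time, with overlapping intervals at P8, so these levels are not read as particular to endothelium. Without the collagen-rich ECs the Eln group was at 34.2 CPM at P8. The closest patterns to Ptgs1 were Pgm5 (r = 0.82), Selp (r = 0.81) and Anapc2 (r = 0.79), over the same 14 groups. Pgm5 spanned 0 to 26.7 CPM and Selp 0 to 59.8 CPM over them, but Anapc2 only 33.4 to 45.45 CPM.

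Ptgs2 was rare in ECs, with its highest levels in the Eln and Car4 groups. It had 2 UMIs in the ECs of E15.5, 53 at E18.5, then 46 at P8, of which at the last 2 times 33 and 18 were in the Eln group, 9 and 14 in the Car4 group and 6 and 14 in the Gja4 group. The Eln group was at 4.41 CPM at E18.5 (3.04 to 6.19), then 4.70 CPM at P8 (2.79 to 7.43), and the Car4 group at 2.32 CPM (1.06 to 4.40) and 3.28 CPM (1.80 to 5.51). The Gja4 group was at 0.176 and 0.293 CPM, and the Gpihbp1 group had 4 UMIs at E18.5, then 0 at P8. The intervals of the Eln and Gja4 groups did not overlap at either time, but they take each UMI as independent. The UMIs of the Eln group lay in 20 cells at E18.5, then 6 at P8. Those of the Car4 group lay in 9 and 8 cells and those of the Gja4 group in 6 and 12. Cells without a Pecam1 or Cdh5 UMI were at 7.61 CPM at E18.5 (4.77 to 11.5), from 3 cells, and had 0 UMIs at P8. Immediate-early and stress genes were also highest in the Eln group, with a sum of 6588 CPM at E18.5, then 12220 CPM at P8 against 4245 and 8401 CPM in the Gja4 group, but the Car4 group was at 4587 and 7925 CPM. Their part in the Ptgs2 level was not tested. Without the collagen-rich ECs the P8 value in the Eln group was 2.46 CPM, below its interval.

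Ptgis, the prostacyclin synthase, had its highest endothelial level in the Eln group at each time. It was 144 CPM there at E15.5 (138 to 151), 116 CPM at E18.5 (108 to 124), then 88.3 CPM at P8 (79.1 to 98.2), against 39.8, 13.04 and 23.3 CPM in the Gja4 group. The ratio was 3.62-fold at E15.5 (3.41 to 3.84), 8.89-fold at E18.5 (7.92 to 9.99), then 3.79-fold at P8 (3.35 to 4.29). The Gpihbp1 group was at 34.4, 15.1 and 22.2 CPM at these times. The Car4 group was at 23.7 CPM at E18.5 (19.1 to 29.1), with no overlap with the Gja4 group (11.8 to 14.3), and at 27.2 CPM at P8 (22.5 to 32.6). Along Eln the level at P8 was 22.5 CPM at 0 or 1 UMI, 24.9 CPM at 2 to 9, 39.9 CPM at 10 to 49 and 209 CPM at 50 or more, and at E18.5 it ran from 13.5 to 210 CPM. Cells without a Pecam1 or Cdh5 UMI, which are mostly mesenchymal, were at 83.8, 175, 173 and 108 CPM at the 4 times. At E13.5 all ECs were at 77.7 CPM (65.3 to 91.7), not above those cells, and the Eln group at the 3 later times was below them, so these levels are not read as particular to endothelium. Leaving out the collagen-rich ECs left 150, 99.9 and 75.5 CPM in the Eln group, still above the Gja4 group.

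Ptges was low in ECs and higher in cells without a UMI of Pecam1 or Cdh5. ECs had 45 UMIs at E15.5, 20 at E18.5, then 14 at P8, which is 0.472, 0.333 and 0.227 CPM. Cells without a Pecam1 or Cdh5 UMI were at 8.46, 10.4 and 29.1 CPM at these times and 18.2 CPM at E13.5. In the Eln group the count was 20 at E15.5 with 10 at E18.5, where the level was 1.38 CPM (0.845 to 2.14) and 1.34 CPM (0.641 to 2.46). Without the collagen-rich ECs these levels were 0.0943 and 0.599 CPM, both below their intervals.

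Of the 4 members compared over time, Hpgd had the largest ratio, and it was present in every endothelial group. At E15.5 it was 209 CPM in the Gja4 group (205 to 213), 42.4 CPM in the Eln group (39.1 to 45.9) and 50.2 CPM in the Gpihbp1 group (46.5 to 54.2). At E18.5 the Car4 group was highest at 191 CPM (177 to 205), followed by Gja4 at 132 CPM (128 to 136), Gpihbp1 at 90.1 CPM (84.5 to 95.8) and Eln at 50.4 CPM (45.4 to 55.7), with no overlap between these 4 groups, while the remaining ECs (121 CPM, 110 to 133) overlapped the Gja4 group. At P8 the levels were 1906 CPM in the Gja4 group, 1599 CPM in Car4, 1430 CPM in Gpihbp1 and 857 CPM in Eln, and again the intervals of these 4 groups did not overlap. The Eln group was thus the lowest of the named groups at each time, and the ECs with 50 or more Eln UMIs were lower still, at 39.3, 26.6 and 378 CPM. Leaving out the collagen-rich ECs took the Eln group to 31.5 CPM at E15.5, and leaving out cells called as doublets took it to 17.6 CPM at E15.5 and 768 CPM at P8.

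The P8 level of Hpgd was 17.0-fold the E18.5 level in the Eln group (15.3 to 19.0), 14.4-fold in Gja4 (14.0 to 14.9), 8.38-fold in Car4 (7.77 to 9.06) and 15.9-fold in Gpihbp1 (14.9 to 17.0). At 2000 UMIs per cell it was seen in 17.7% of all ECs at E18.5 (17.0% to 18.5%), then 83.8% at P8 (83.0% to 84.6%), and without thinning in 35.3% and 92.1%, at median depths of 5682 and 5667 UMIs. The P8 cells without a Pecam1 or Cdh5 UMI, 95 in number, were at 77.6 CPM (57.2 to 103), with Hpgd in 11.2% of 80 thinned cells (5.27% to 20.3%). Stress genes also stood higher at P8, at 8484 CPM in all ECs against 4545 CPM at E18.5. At E15.5 the sum was 1054 CPM. The age of the lungs, the library and the handling cannot be told apart with 1 library per time. Over the 14 groups the patterns nearest to Hpgd were those of Bvht (r = 0.97), Crem (r = 0.96) and 2410004B18Rik (r = 0.96). Their ranges were far narrower than that of Hpgd, at 45.95 to 193 CPM, 39.6 to 98.55 CPM and 46.1 to 89.1 CPM.

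**Figure D2:**
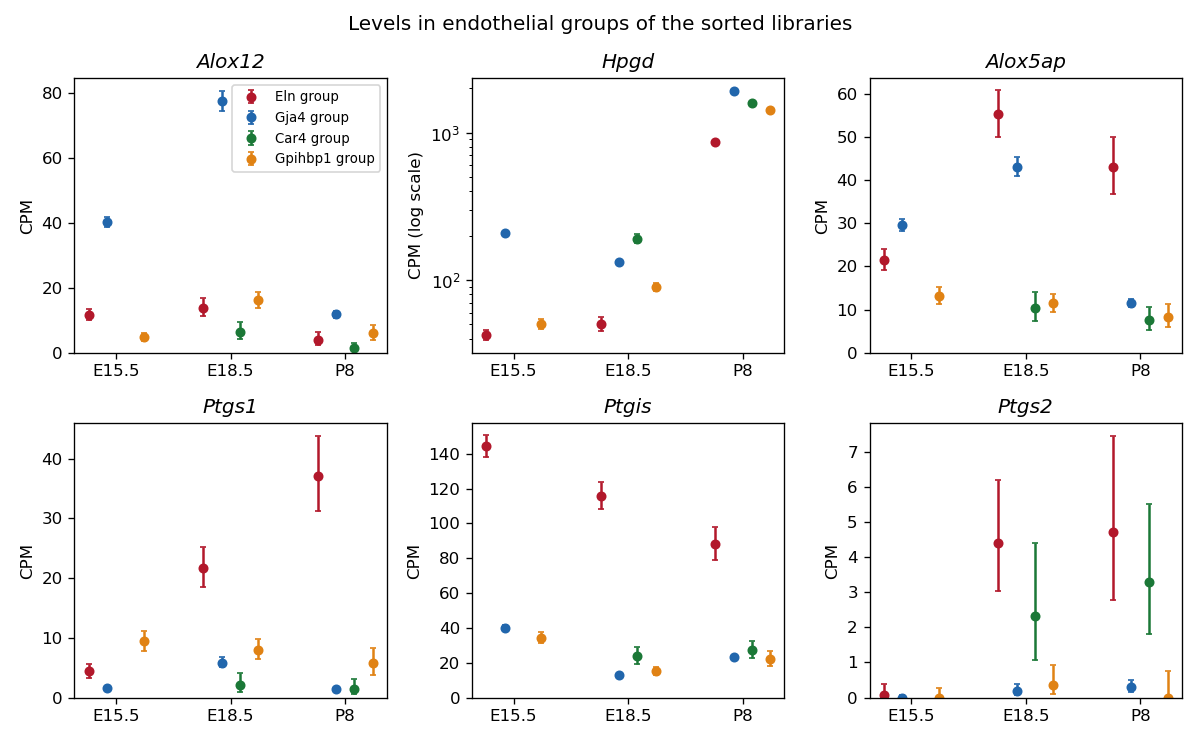
Levels of Alox12, Hpgd, Alox5ap, Ptgs1, Ptgis and Ptgs2 in CPM (y axes from 0, log scale for Hpgd) in the Eln, Gja4, Car4 and Gpihbp1 groups of endothelial cells at the 3 later times. Points are summed levels, bars exact 95% counting intervals, and the Car4 group is not drawn at E15.5, where it held 8 cells; Alox12 was highest in the Gja4 group while Ptgis was highest in the Eln group at each time.

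A gene was called between groups when its level differed at least 2-fold, on the log2 scale with 0.5 CPM added, among genes with a mean of at least 10 CPM over both groups. Of the 8 genes, 4 were high enough to be compared between the Gja4 and Eln groups at E15.5 and 3 were called, 2 higher and 1 lower in Gja4, where 8.58% of all genes compared were called. At E18.5 it was 4 of 5, with 2 in each direction (9.87% of all genes), and at P8 4 of 4, with 1 higher and 3 lower (9.48%). Between Gja4 and Gpihbp1 it was 3 of 4 at E15.5, all higher in Gja4 (6.67% of all genes), 2 of 4 at E18.5, both higher (5.62%), and 0 of 2 at P8 (1.35%). Between Car4 and Gpihbp1 it was 2 of 4 at E18.5 (5.21%), with Hpgd higher and Alox12 lower in Car4, and 0 of 2 at P8 (4.34%). Alox12 at P8 was under the minimum in these comparisons. A gene that reached the minimum only through the group where it was high was more likely to be called. This held for Ptgs1 at E18.5, then P8 between Gja4 and Eln. It also held for Alox12 between Gja4 and Gpihbp1 at E15.5 (40.1 against 4.81 CPM). Between Car4 and Gpihbp1 at E18.5 it held for Alox12 again (6.44 against 16.1 CPM). These counts are therefore a description.

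Over all ECs, the levels of Alox12 were 18.9, 27.7, 49.9 and 10.0 CPM at E13.5 and then the 3 later times. Those of Alox5ap were 14.98, 24.7, 35.1 and 12.96 CPM, so both were highest at E18.5. Hpgd was at 62.7, 147, 117 and 1769 CPM, Ptgis at 77.7, 55.1, 27.0 and 27.3 CPM and Ptgs1 at 2.77, 3.84, 8.43 and 4.21 CPM. From E15.5 to E18.5, 1 of 4 compared members was called, Ptgis, lower by 2.04-fold (1.93 to 2.16), where 12.5% of all genes were called and the median gene was 0.17 higher on the log2 scale. From E18.5 to P8, 3 of 4 were called (7.40% of all genes): Hpgd higher by 15.1-fold (14.7 to 15.4), Alox12 lower by 4.99-fold (4.57 to 5.45) and Alox5ap lower by 2.70-fold (2.49 to 2.94). These sums over all ECs mix groups whose shares differed between libraries. Within groups, whose make-up also changed as given above for Gja4, Alox12 was lower at P8 by 6.60-fold in Gja4 (6.02 to 7.25), 3.51-fold in Eln (2.03 to 6.51), 2.70-fold in Gpihbp1 (1.81 to 4.15) and 4.58-fold in Car4 (1.83 to 13.6). Alox5ap was lower by 3.77-fold in Gja4 (3.42 to 4.17), 1.28-fold in Eln (1.07 to 1.55), 1.39-fold in Gpihbp1 (0.969 to 2.04) and 1.37-fold in Car4 (0.841 to 2.26), so of these 4 groups only Gja4 was past 2-fold, and the last 2 intervals include no change.

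**Figure D3:**
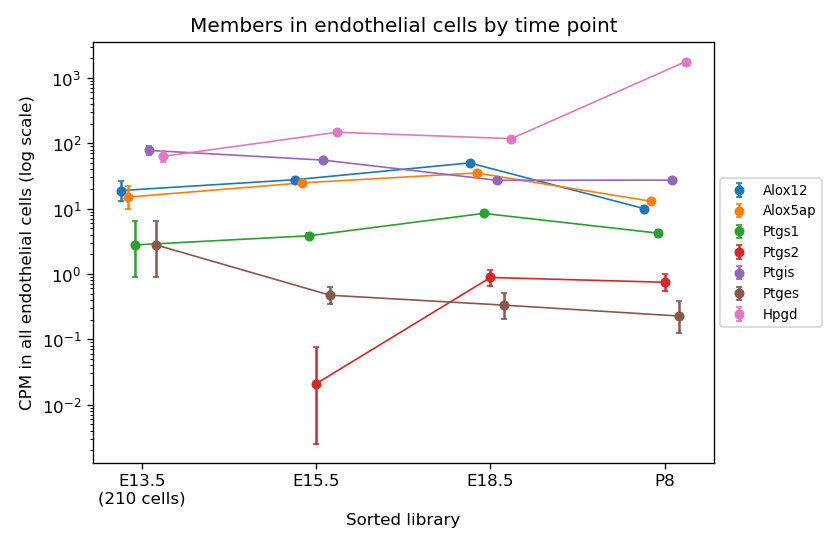
Levels of 7 members in all endothelial cells of the sorted libraries, in CPM on a log scale, at E13.5 and then the 3 later times. Points are summed levels of 1 library each and bars exact 95% counting intervals; Alox5, with at most 2 UMIs at any time, is not drawn, nor is Ptgs2 at E13.5, where it was 0, and Hpgd stands at 1769 CPM at P8 after 117 CPM at E18.5.

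In the whole lungs the targeted gene went against the labels. Cxcl12 had 15155 UMIs in the endothelial class of the library labelled null (673 CPM) and 77 UMIs in that of the library labelled control (6.19 CPM). In the arterial EC-like cluster the levels were 2048 and 30.1 CPM. The names of the deposited matrices also give the opposite genotypes to the labels. The libraries are therefore called by their labels below, and any direction between them would turn around if the labels were exchanged. They shared 140 cell barcodes, 1.58% of the smaller library, against 20 to 54 for every other pair of libraries. Joint clustering put 1480 and 2357 cells of the libraries labelled control and null in the endothelial class, 724 and 535 in the epithelial, 4105 and 4779 in the mesenchymal and 790 and 877 in the immune class, and 349 and 519 cells in clusters of mixed class were left out. Clusters were named from fixed marker lists as "-like", and shares of cells are given only beside results they move with.

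Whole lungs placed the members in different cell classes. Alox12 was endothelial, at 34.4 CPM in the library labelled control (31.2 to 37.8) and 44.2 CPM in that labelled null (41.5 to 47.0), and 0.417 to 3.11 CPM in the epithelial, mesenchymal and immune classes. The clusters of mixed class, which include cycling-like cells, held 13.5 and 11.9 CPM. Within endothelium the arterial EC-like cluster stood at 97.7 and 101 CPM and the larger gCap-like cluster, of general capillary type, at 20.7 and 27.9 CPM. An unnamed endothelial cluster led by Car4 was at 15.1 and 13.8 CPM. The order of these clusters was thus that of the Gja4, Gpihbp1 and Car4 groups of the sorted library at E18.5. A smaller gCap-like cluster, with 234 and 193 cells, was left out of this order and its level is not given here. The order therefore does not cover all cells of general capillary type. Among immune cells, Alox12 was at 2.02 and 4.77 CPM in monocyte-like cells and at 2.16 and 1.10 CPM in macrophage-like cells, whose leading genes included the platelet gene Pf4.

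Alox5 and Alox5ap were immune genes in the whole lungs. Alox5 was at 16.3 CPM in the immune class labelled control (14.3 to 18.6) and 18.5 CPM labelled null (16.4 to 20.7), and at 0.0932 to 1.97 CPM in the other 3 classes. Alox5ap was at 785 and 725 CPM in the immune class, with 1009 and 995 CPM in monocyte-like and 238 and 230 CPM in macrophage-like cells. AT1-like cells, the flat alveolar epithelium, also held 215 and 183 CPM, in 12.03% and 10.7% of thinned cells. Immune markers also summed to 1440 and 1231 CPM in that cluster, against 7.64 to 289 CPM in the other epithelial clusters and 7222 and 6801 CPM in monocyte-like cells, and 16.5% and 10.6% of its cells were called as doublets. Their part in this Alox5ap level was not tested. In the endothelial class it was 28.8 and 22.7 CPM, and the arterial EC-like cluster was the highest of the endothelial clusters at 68.4 and 46.3 CPM. After the authors' SoupX removal of free RNA the endothelial class kept 16.2 and 8.97 CPM and the arterial EC-like cluster 33.3 and 27.2 CPM.

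Ptgs1 was spread over mesenchymal, epithelial and immune cells. The mesenchymal class was at 88.0 CPM labelled control (84.7 to 91.3) and 76.1 CPM labelled null (73.6 to 78.8). Smooth muscle-like cells stood at 196 and 180 CPM, an unnamed mesenchymal cluster led by Lnx1, Gdf10 and Fgf18 at 156 and 162 CPM, AT1-like cells at 121 and 167 CPM and macrophage-like cells at 106 and 127 CPM. Ptgs1 in the endothelial class was 14.6 and 7.33 CPM in the raw counts and 2.38 and 3.15 CPM after SoupX, so that the order of the libraries turned around. Ptgs2 was at 7.22 CPM (5.89 to 8.76) and 6.22 CPM (5.06 to 7.56) in the immune class, with 9.55 and 9.31 CPM in monocyte-like cells, and at 0.802 to 1.98 CPM in the other 3 classes.

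Ptgis and Ptges were highest in the mesenchymal class. Ptgis was at 68.1 CPM in the mesenchymal class labelled control (65.3 to 71.1) and 105 CPM labelled null (102 to 108). Its highest clusters were an unnamed mesenchymal cluster led by Igfbp2 and Osr2 (194 and 229 CPM), adventitial fibroblast-like cells (118 and 176 CPM), smooth muscle-like cells (120 and 160 CPM) and alveolar fibroblast-like cells (117 and 123 CPM). Its endothelial level of 14.7 and 26.1 CPM became 2.29 and 20.0 CPM after SoupX. Ptges was at 28.4 CPM (26.6 to 30.4) and 20.1 CPM (18.8 to 21.5) in the mesenchymal class, with 46.6 and 44.1 CPM in an unnamed mesenchymal cluster led by Cpne7, Vsnl1 and Htra1 and 34.0 and 44.3 CPM in secretory-like epithelial cells.

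Hpgd was found in several unrelated cell types. In the endothelial class it was 44.9 CPM labelled control (41.2 to 48.7) and 95.1 CPM labelled null (91.1 to 99.2). Within endothelium the arterial EC-like cluster was at 101 and 130 CPM, the Car4-led cluster at 51.1 and 124 CPM and the larger gCap-like cluster at 16.9 and 61.7 CPM. The first places differed from the sorted library at E18.5, where the Car4 group (191 CPM) was above the Gja4 group (132 CPM). The Gpihbp1 group (90.1 CPM) was below both there. Outside the endothelium of the whole lungs, smooth muscle-like cells were at 177 and 69.8 CPM, macrophage-like cells at 108 and 97.9 CPM and ciliated-like cells at 95.1 and 80.3 CPM. After SoupX the smooth muscle-like cells were at 271 and 73.8 CPM and the ciliated-like cells at 138 and 90.6 CPM.

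**Figure D4:**
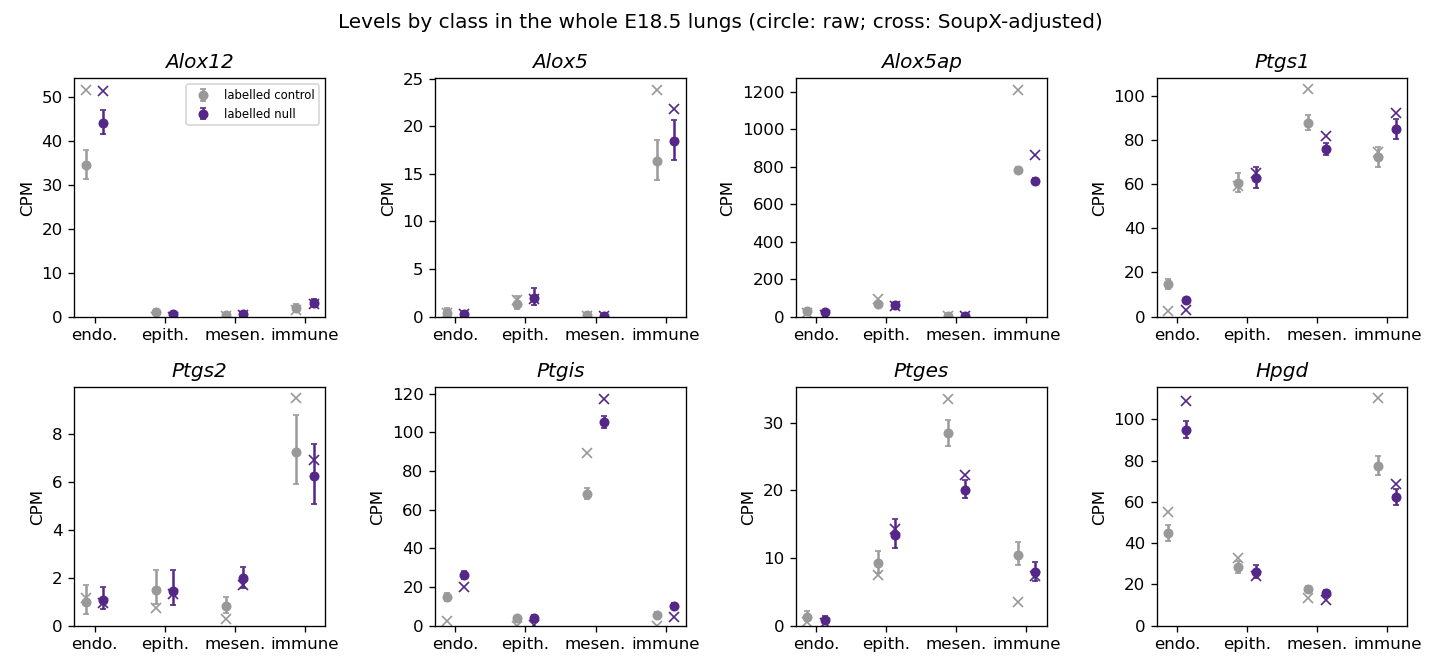
Levels of the 8 genes in CPM (y axes from 0) by cell class in the whole E18.5 lungs, in the library labelled control (grey) and the library labelled null (purple). Circles are raw summed levels with exact 95% counting intervals and crosses are SoupX-adjusted levels; the Cxcl12 counts go against these labels, and the endothelial Ptgs1 level of 14.6 CPM in the library labelled control becomes 2.38 CPM after adjustment.

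Between the whole-lung libraries, 1 member was past 2-fold in 1 class. In endothelial cells 5 members were compared and Hpgd alone was called, 2.12-fold higher in the library labelled null (1.93 to 2.33), where 0.572% of all genes were called. With ECs taken by the Pecam1 and Cdh5 cut in place of clusters the same log2 ratio was 0.93 and not past 2-fold, and with SoupX-adjusted values it was 0.98. With those values the endothelial member past 2-fold was Ptgis in place of Hpgd, at a log2 ratio of 2.88, against 0.81 in the raw counts. Adjusted Ptgis was under 10 CPM in the library labelled control and reached the minimum only through that labelled null, so the filter favours this call. No member was called in the epithelial class (0 of 4, 0.449% of all genes), the mesenchymal class (0 of 4, 0.832%) or the immune class (0 of 4, 1.01%). Ptgis was 1.54-fold higher in mesenchymal cells labelled null (1.46 to 1.62) and Ptges 1.41-fold higher in those labelled control (1.29 to 1.55). The clusters of this class had different shares in each library. The adventitial fibroblast-like cluster and the one led by Igfbp2 and Osr2, both high in Ptgis, held 162 and 189 of 4105 mesenchymal cells labelled control and 598 and 487 of 4779 labelled null. The Ptgis levels of its clusters are given above, and the part of these shares in the ratio was not tested. Alox12 in endothelial cells was 1.28-fold higher in the library labelled null (1.15 to 1.44) in the raw counts, while the SoupX-adjusted levels were 51.6 and 51.4 CPM. SoupX kept 59.6% of the endothelial UMIs labelled control and 81.5% of those labelled null, so the libraries were adjusted unequally. The arterial EC-like cluster, where Alox12 was at 97.7 and 101 CPM, held 279 of 1480 endothelial cells labelled control and 697 of 2357 labelled null, and arterial markers summed to 1081 and 1725 CPM in the class. This cluster was also the highest in Hpgd of the endothelial clusters given above. The part of these shares in the Alox12 and Hpgd ratios was not tested. With 1 library of each label these intervals hold no variation between animals.

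**Figure D5:**
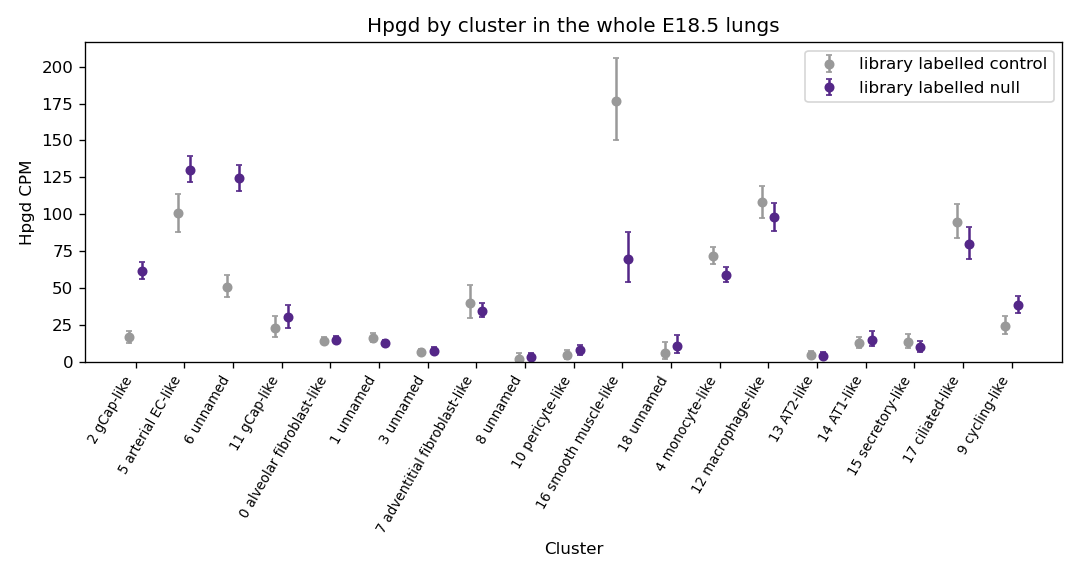
Hpgd in CPM (y axis, from 0) in the clusters of the whole E18.5 lungs with at least 50 cells in each library, ordered as endothelial, mesenchymal, immune, epithelial and mixed. Points are summed levels of the libraries labelled control (grey) and null (purple) with exact 95% counting intervals; the gCap-like cluster 2 shows 16.9 and 61.7 CPM and the smooth muscle-like cluster 177 and 69.8 CPM.

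The rest of the pathway was followed with a list of 49 gene features. Of the genes that release arachidonic acid, Pla2g12a reached 86.2 CPM and Pla2g16 116 CPM in the epithelial class labelled null, and Pla2g15, a lysosomal phospholipase, 68.9 CPM in the immune class labelled control. Of the leukotriene genes, Lta4h, which makes leukotriene B4, was at 65.5, 69.5 and 45.9 CPM in ECs at the 3 later times, whereas Ltc4s, which makes leukotriene C4, was at 1.07 to 1.48 CPM in ECs and at 92.8 and 117 CPM in the immune class. Dpep1, a dipeptidase that acts on leukotriene D4, was at 260 and 381 CPM in the mesenchymal class. Among the other prostanoid enzymes, Ptges3, Cbr1 and Akr1b3 were all present in ECs, at 126, 60.7 and 136 CPM at P8.

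The transporter and receptors had their own endothelial patterns. Slco2a1, which carries prostaglandins into cells for breakdown, was at 29.3 CPM in ECs at E15.5, 262 CPM at E18.5, then 331 CPM at P8. It was at 451 CPM in the Eln group and 223 CPM in the Gja4 group at E18.5, and in the other order at P8, at 249 and 341 CPM. Tbxa2r, the thromboxane receptor, was at 266 CPM in the Car4 group and 119 CPM in the Gpihbp1 group at E18.5. At P8 these levels were 206 and 56.5 CPM. Ephx2, the soluble epoxide hydrolase, and Ptger4, a prostaglandin E2 receptor, marked the Eln group, at 116 and 31.4 CPM there at E18.5 against 0.498 and 0.293 CPM in the Gja4 group. Ephx1, the microsomal epoxide hydrolase, was at 62.7 CPM in the Eln group and 49.5 CPM in the Gja4 group at P8, less than 2-fold apart. The leukotriene receptors Cysltr1 and Ltb4r1 were at 33.6 and 57.2 CPM in the immune class labelled control and under 0.5 CPM in the ECs of the sorted libraries. The endothelial class of that whole lung was at 1.45 and 0.884 CPM.

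Between the Gja4 and Eln groups, 5 of the 14 listed genes that could be compared were past 2-fold at E15.5 (8.58% of all genes), 5 of 14 at E18.5 (9.87%), then 4 of 13 at P8 (9.48%), with 4, 4 and 3 of them lower in the Gja4 group and Tbxa2r higher at each time. Of those lower, Ptgds, Ephx1 and Ephx2 at E15.5, then Pla2g16, Ephx2 and Ptger4 at E18.5, and Ephx2 and Ptger4 at P8 were under 10 CPM in the Gja4 group and reached the minimum only through the Eln group, so the filter favours their call and these counts only describe the list. Their median log2 ratios were -0.19, -0.25 and 0.14, beside -0.06, 0.05 and 0.07 over all genes compared. Between the Gja4 and Gpihbp1 groups it was 1 of 10 (6.67%), 1 of 11 (5.62%) and 0 of 11 (1.35%) at these times, and between the Car4 and Gpihbp1 groups 1 of 9 at E18.5 (5.21%), then 1 of 11 at P8 (4.34%), Tbxa2r in both. Those called between Gja4 and Gpihbp1 were Slco2a1 at E15.5 (30.2 against 8.70 CPM) and Ephx1 at E18.5 (26.7 against 9.08 CPM). Both reached the minimum only through the Gja4 group, so the filter favours their call too. From E15.5 to E18.5, 4 of 13 were past 2-fold, all higher (12.5% of all genes), and from E18.5 to P8 2 of 11, Akr1b3 and Ephx1, both higher (7.40%). At E15.5 Ephx1 and Ephx2 were at 6.99 and 5.45 CPM and reached the minimum only through E18.5, so the filter favours their call there. Between the whole-lung libraries none of the 11, 17, 13 and 23 listed genes compared in the endothelial, epithelial, mesenchymal and immune classes was past 2-fold, where 0.572%, 0.449%, 0.832% and 1.01% of all genes were.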

How the data were processed

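Data of 6 libraries were deposited by the authors as filtered gene by cell matrices. Per the labels, reads were aligned to mm10 with Cell Ranger 3.1, and the file headers give Cell Ranger 3.1.0 for 3 libraries and 3.0.2 for the other 3. The deposited raw matrices hold whole UMI counts, 63746333 to 117522172 per library. Estimated counts after removal of free RNA were also deposited by the authors for both whole lungs, made with SoupX, leaving 51419147 and 84694051 UMIs, and these were used for the limits on cells and as an alternative. Names of the whole-lung matrices give the opposite genotype to their labels, and samples were grouped by label.

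Cells with at least 700 genes and 0.5% to 10% mitochondrial UMIs were kept. Doublets stayed in and were called with Scrublet for an alternative; its own threshold was used for E15.5 and both whole lungs, and a fixed upper share of scores for the other libraries. Endothelial cells and their groups were set by the cuts given above, which assigned each cell to the first group it met. Whole lungs were clustered jointly with 3000 variable genes without the 8 members, 20 principal components and Louvain clustering at resolution 0.8 (scanpy 1.11.5, python-igraph 0.11.9). Levels are summed counts per 1000000 UMIs of a group of at least 50 cells. Intervals are exact Poisson for levels, exact conditional binomial for ratios and Clopper-Pearson for shares, at 95%, and cover counting error only. Folds were given where both sides had more than 3 counts. Log2 ratios add 0.5 CPM. The ratio step was tested on simulated data.

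The genes named were the 8 members, the genes of the cuts, Cxcl12 and up to 3 genes with the highest level for each role of the pathway list. The 3 genes most like Alox12, Hpgd, Ptgs1 and Alox5ap were named too. Gkn3, Ptger4 and Ptgds were named after their values were seen. Members and lists were chosen with earlier results of these data known. Alternatives covered the cuts, the limits on cells, thinning, doublets, collagen-rich cells, pseudocount, per-cell averaging, cluster resolution, SoupX and, added after the data were seen, shared barcodes.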

Additional observations from a re-analysis of the deposited data

Results flagged for a closer look

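Hpgd differed between the whole-lung libraries in opposite directions in different clusters, and the difference between the clusters was not tested. The log2 ratio of the library labelled null over that labelled control was 1.84 in the gCap-like cluster 2 and 1.27 in the Car4-led endothelial cluster 6, but -1.33 in the smooth muscle-like cluster 16. Raw UMIs behind these were 464 against 70, 749 against 197 and 70 against 160. SoupX-adjusted levels kept the directions, with 67.8 against 15.8 CPM, 145 against 59.8 CPM and 73.8 against 271 CPM. In the gCap-like cluster 2, arterial markers summed to 1037 against 544 CPM and erythroid markers to 499.7 against 40.2 CPM, and in cluster 6 these were 830.5 against 662 CPM and 726 against 497 CPM. Macrophage markers summed to 125 against 12.1 CPM in cluster 16. Their part in these ratios was not tested. The genotype labels of these libraries are in doubt, so no genotype is assigned to either direction.

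Alox5ap also moved in opposite directions, which was not tested either. Its log2 ratio was 1.89 in the AT2-like cluster 13 and 1.59 in the secretory-like cluster 15, and -1.46 in the cycling-like cluster 9 and -1.89 in the unnamed mesenchymal cluster 18. The 6 immune markers moved with it, at 263 against 65.0 CPM, 289 against 71.7 CPM, 29.9 against 92.3 CPM and 31.5 against 127 CPM in the libraries labelled null and control, and their part in these ratios was not tested.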

How the results depend on the processing

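Alox12 stayed higher in the Gja4 group than in the Eln and Gpihbp1 groups at the 3 later times under each of the 11 alternatives that gave these ratios, with log2 ratios over the Eln group of 1.45 to 2.36, 2.13 to 3.12 and 0.91 to 2.37, and over the Gpihbp1 group of 1.25 to 3.22, 0.89 to 2.39 and 0.18 to 1.42. Over the Eln group at E15.5, values outside the counting interval were 1.45 with 5 CPM added, 2.27 with per-cell means, 2.12 with cells thinned to 4000 UMIs, 2.36 without doublet calls and 2.22 without collagen-rich cells. At E18.5 they were 2.13 with 5 CPM added, 3.12 with thinning and 3 with doubled cuts. Over the Gpihbp1 group they were 2.20 at E15.5 and 1.97 at E18.5 with 5 CPM added, and 1.25, 0.89 and 0.18 at the 3 times with each cut used alone, where cells can stand in both groups. The count of member comparisons past 2-fold between endothelial groups was 18 of 29 (6.41% over all genes) and 8 of 11 with a minimum of 50 CPM (5.61%). Between time points it was 4 of 8 (9.96%) and 1 of 2 (9.77%). The 8 contrasts between endothelial groups share groups and compare the same few genes again, and the filter favoured some calls, as given above. Alox12 had also been picked as a marker in these libraries. These pooled counts are therefore a description. Between the whole-lung libraries the count was 1 (Hpgd), among 5 members compared in endothelial cells, where 0.572% of all genes were called. In each other class it was 0 of 4, where 0.449% to 1.01% of all genes were called. It was also 1 with SoupX-adjusted values (Ptgis in place of Hpgd, both in endothelial cells). It was 2 at resolution 0.4, where Ptgs1 in endothelial cells reached a log2 ratio of -1.003, and 0 with the Pecam1 and Cdh5 cut. The share of all genes is not given for these alternatives, so their counts cannot be set against a background. Adjusted Ptgis reached the minimum only through the library labelled null. Ptgs1 in the main setting was under 10 CPM in that library. The filter favours such calls. No value reported as past 2-fold changed sign under any alternative run, but Ptgs1 in endothelial cells of the whole lungs, reported at -0.94, was at 0.34 with SoupX-adjusted values. Of the other log2 ratios and levels, most stayed within their counting intervals, which are narrow at these totals. With 1 library per condition the spread between animals is unknown, and no replicate could be left out. No paired analysis was possible because the labels give no shared replicates. Free RNA was not adjusted in the sorted libraries.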
